A study of Homo sapiens with 60 samples.

Results

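The RNA captured near PML was compared with the RNA captured near SP100, a pair of proteins that mark the same nuclear structure, the PML body. The comparison rests on 4 of the 60 libraries of the series, the 2 PML pulldowns and the 2 SP100 pulldowns of the nuclear body gene-count table. The 4 libraries of RNA taken before pulldown from the same lines (the inputs) stand beside them to show where the lines already differed in RNA level.

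Cells were Flp-In HEK293, a human embryonic kidney line with a site for inserting a transgene, and each line stably expressed FLAG-tagged APEX2 fused to its bait. APEX2 is an engineered peroxidase that, given hydrogen peroxide, turns biotin-phenol into a short-lived radical that tags nearby molecules, and tagged RNA was then captured on streptavidin. All 8 libraries shared 1 treatment: 24 hours after plating, 500 µM biotin-phenol for 30 minutes and then 1 mM hydrogen peroxide for 1 minute. Per the labels they were made from total RNA depleted of ribosomal RNA. The same table holds 12 other constructs, treated alike, each with 2 pulldowns and 2 inputs. The labels say neither whether a line grew from a single clone nor whether replicates were separate cultures, so p-values measure only the spread between these libraries.

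PML bodies are round nuclear assemblies scaffolded by the PML protein, a member of the tripartite motif family that is heavily modified by the small protein SUMO and also binds it. SP100 is a resident of nearly every PML body and, like PML, is an interferon-induced gene. The bodies also take up DAXX and ATRX, which deposit histone H3.3, and the helicase BLM, and they are known for roles in antiviral defence, senescence and the response to DNA damage.

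Each of the 4 pulldowns held 29128313 to 30818193 counts, and each of the 4 inputs 17083587 to 39104592. Mitochondrially encoded genes took 0.918 to 1.10% of the counts in the pulldowns and 1.496 to 2.00% in the inputs. Of the 14 genes described as expressed in HEK293 cells, 11 were at 1 CPM or more in all 8 libraries (CPM, here relative to total counts). NEFM and NEFH stayed under 1 CPM, and SOX2 was listed at 0. Of 22 markers of other cell types, 17 were under 1 CPM in all 8 libraries and HBB was at 0. COL1A1 (3.21 to 16.98 CPM) and PMEL (1.91 to 3.47 CPM) exceeded 1 CPM in all 8. The summed level of the 22 markers was 9.09 to 10.4 CPM in the PML pulldowns and 14.7 to 15.2 CPM in the SP100 pulldowns on this unscaled scale, and its part in the results was not tested. Across genes, log2 CPM of replicates correlated at 0.992 to 0.996. Except in these marker checks and where total counts are named, library sizes behind CPM were scaled by TMM, and differences are log2 values of PML minus SP100 with their standard error from edgeR's quasi-likelihood test, 2 libraries per group. Adjusted p-values are Benjamini-Hochberg values over all 23681 genes tested, and a gene is called at an adjusted p under 0.05.

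The targeted genes marked their lines. PML read 191 and 188 CPM in the PML pulldowns and 23.4 and 22.5 CPM in the SP100 pulldowns, a difference of 3.05 ± 0.16 (adjusted p = 2.8e-16). In the inputs it read 499 and 518 CPM in the PML line and 59.1 and 58.5 CPM in the SP100 line. SP100 had 7 and 18 counts in the PML pulldowns (0.230 and 0.563 CPM) and 35226 and 32803 counts in the SP100 pulldowns (1082 and 1046 CPM). The 12 other pulldowns held PML at 26.8 to 39.3 CPM and SP100 at 0.151 to 0.878 CPM. So outside its own line SP100 RNA was close to the limit of detection, both in the inputs (0.0800 and 0.303 CPM in the PML line) and in the pulldowns. The table does not separate reads of a construct from reads of the cell's own gene.

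The pulldowns of the PML and SP100 lines differed at 1232 genes (5.2% of those tested), of which 721 (3.04%) were higher with PML and 511 (2.16%) higher with SP100. Among the 11456 genes with a known position and a mean of 5 CPM or more, 5.33% were higher with PML and 2.32% with SP100. The shares of gene lists below are set beside all genes tested, whatever their level. In bulk libraries, fewer cells with a transcript and less of it per cell cannot be told apart. Differences of 2-fold or more were more often towards SP100, with 244 genes against 102 towards PML. Which side held more calls depended on scaling, on the filter and on the libraries fitted. The share of calls higher with PML was 58.5% with TMM, 42.9% with DESeq2 size factors (480 against 640), 34.5% with total counts (387 against 736) and 51.7% with TMM computed without mitochondrially encoded and small RNA genes (605 against 565). The median difference over genes with a mean of 5 CPM or more moved from 0.08 with TMM to -0.02 with total counts. In all 1232, both PML pulldowns lay on one side of both SP100 pulldowns, as they did for 52.9% of all genes tested. The count of calls fell to 404 without PML pulldown 1, 628 without PML pulldown 2, 421 without SP100 pulldown 1 and 591 without SP100 pulldown 2.

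Among all pairs of baits, PML and SP100 were one of the closest. Of 91 pairs fitted in the same model, which span 610 to 14000 called genes with a median of 7906, the pair had the third lowest number of calls. By the root mean square log2 difference over 12210 genes with a mean of 5 CPM or more it was the fifth lowest, at 0.339 against a range of 0.285 to 1.17. The next nearest bait to PML was SMN2, of Cajal bodies and gems (2240 calls), and then FLAG alone (2709 calls). SP100 stood farther from those constructs, with 4664 calls against SMN2 and 4957 against FLAG.

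Most of what separated the pulldowns also separated the inputs. The inputs of the lines differed at 1645 genes (6.95%), 834 higher in the PML line (3.52%) and 811 in the SP100 line (3.42%), and 751 of the 1232 pulldown calls (61.0%) were called in the inputs in the same direction, which is 45.7% of the input calls. The sign was the same for 1204 of the 1232. Across the called genes the pulldown and input differences correlated with a Pearson r of 0.876, and across 11879 genes with a mean of 5 CPM or more with an r of 0.845. Across all 23681 genes tested, those of lower level included, r was 0.307. These are descriptions across genes, which are not independent, and each line's pulldown was drawn from RNA of that line. Among the 346 calls of 2-fold or more, the median ratio of the input difference to the pulldown difference was 0.858.

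The other 481 pulldown calls had no call in the same direction in the inputs. Of these, 453 had an input difference of the same sign, with a median of 0.35 in the direction of the pulldown. Their median pulldown difference, without sign, was 0.67, close to the 0.72 of the calls shared with the inputs, and their median level was lower, at 16.8 against 24.2 CPM. A direct test of whether pulldown over input differed between the baits called 14 genes (0.0591%; 695 at an unadjusted p under 0.05), and 4 of these were also called between the pulldowns: NUP98, EEA1, TNC and ATF3.

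**Figure D1:**
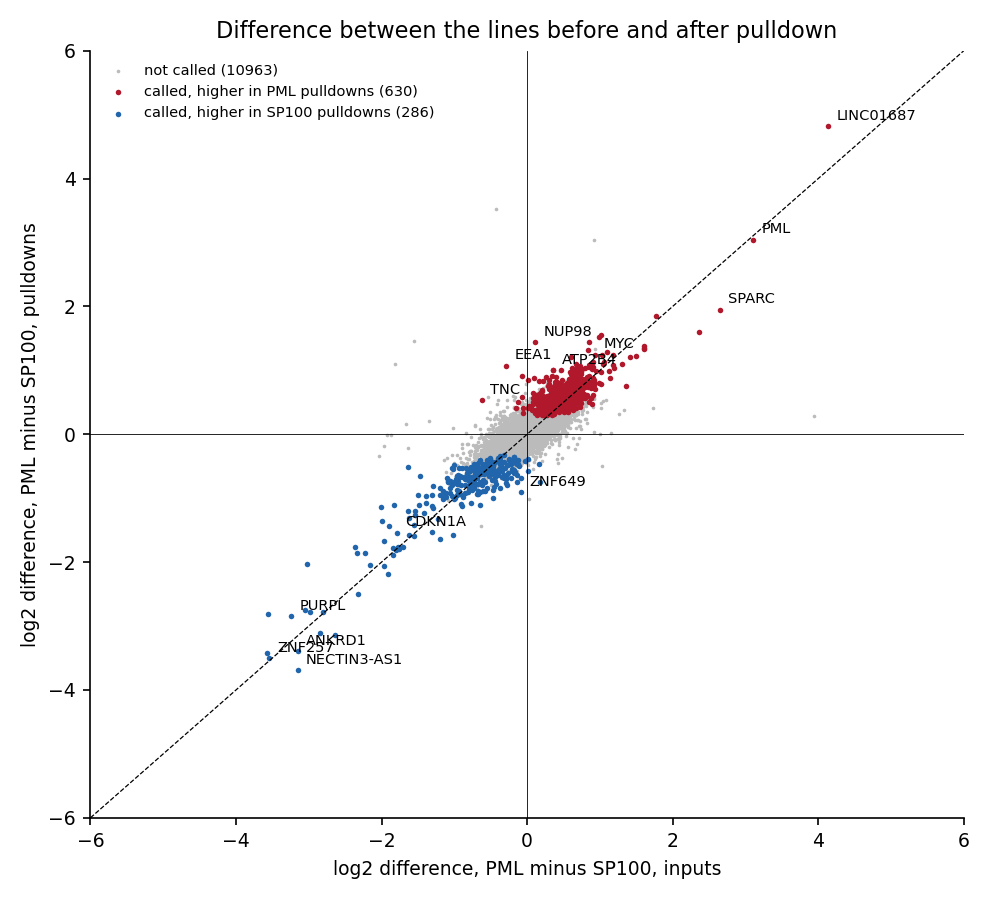
Each point is a gene with a mean of 5 CPM or more over the 4 pulldowns; the horizontal axis is the log2 difference of PML minus SP100 in the inputs and the vertical axis the same in the pulldowns, with red and blue for calls higher in the PML and SP100 pulldowns. Points lie along the dashed line of equal difference, while NUP98 (0.11 in the inputs, 1.44 in the pulldowns), EEA1 and ATP2B4 stand above it. SP100 itself lies beyond the axes.

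NUP98 had the smallest p-value of that direct test. It encodes the precursor of a pair of nuclear pore proteins, NUP98 and NUP96, and in the RefSeq table (GRCh38.p14) it spans chr11:3675010-3797554. NUP98 read 559 and 530 CPM in the PML pulldowns and 190 and 211 CPM in the SP100 pulldowns. The groups did not overlap, and the difference was 1.44 ± 0.10, or 2.71-fold (adjusted p = 1.7e-13). In the inputs NUP98 read 228 and 231 CPM in the PML line and 212 and 214 CPM in the SP100 line (0.11, adjusted p = 0.63). The difference between the pulldowns exceeded that between the inputs by 1.33 ± 0.14 (adjusted p = 2.1e-07), and this call held with each library left out. The means of the 12 other pulldowns were 138 to 303 CPM, so the PML pulldowns lay above all of them while the SP100 pulldowns lay within.

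EEA1 encodes a tether of early endosomes and read 253 and 215 CPM in the PML pulldowns against 106 and 117 CPM in the SP100 pulldowns, a difference of 1.07 ± 0.16 (adjusted p = 1.1e-05). Its inputs lay the other way, at 100 and 93.3 CPM in the PML line and 118 and 118 CPM in the SP100 line (-0.29, adjusted p = 0.34). Here PML was not the highest bait, since the SAM68 pulldowns had a mean of 821 CPM. The test of pulldown over input (1.36, adjusted p = 0.0016) was lost for EEA1 without PML pulldown 1, without SP100 pulldown 1 and without PML input 2.

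ATP2B4, a calcium pump of the plasma membrane, read 252 and 214 CPM near PML and 112 and 121 CPM near SP100 (1.00 ± 0.14, adjusted p = 8.5e-06). Its inputs differed by 0.36 (adjusted p = 0.14), and pulldown over input did not differ past the threshold for it (adjusted p = 1). TNC, the extracellular matrix protein tenascin-C, was named after its values were seen, as the only gene called in opposite directions in pulldowns and inputs. It read 21.8 and 21.4 CPM near PML and 13.5 and 16.3 CPM near SP100, but 23.9 and 23.3 CPM in the PML inputs and 35.5 and 37.0 CPM in the SP100 inputs. For TNC the test of pulldown over input gave 1.15 (adjusted p = 0.0016), which was lost without SP100 pulldown 1 and without PML input 2.

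**Figure D2:**
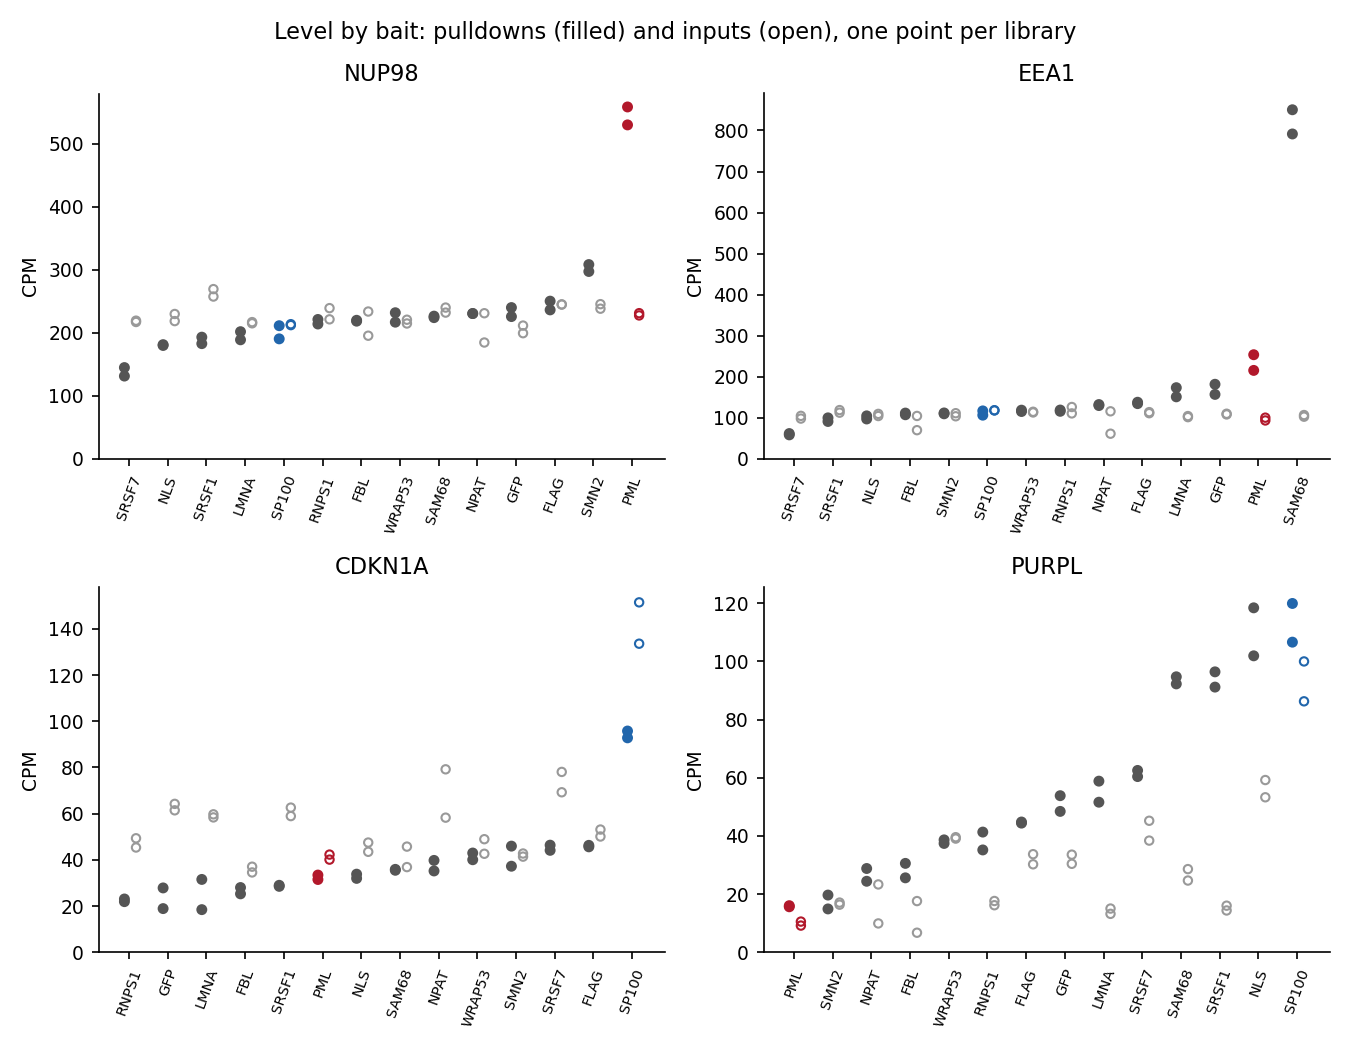
CPM of NUP98, EEA1, CDKN1A and PURPL in every library, with baits ordered by the mean of their pulldowns; filled points are pulldowns, open points inputs, red PML and blue SP100. The PML pulldowns are the highest for NUP98 at 559 and 530 CPM, and the SP100 pulldowns have the highest mean for CDKN1A and PURPL, and for PURPL they overlap the NLS pulldowns.

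Among PML body components and regulators, 5 of 49 tested genes were higher with PML and 2 with SP100, 14.3% called against 5.2% of all genes tested, with a median difference of 0.10 against 0.02. The bait genes account for 1 on each side. CHD3, a chromatin remodeller of the NuRD complex, differed by 0.58 ± 0.11 (adjusted p = 0.00075), and its call was lost without SP100 pulldown 1. H3-3A, which encodes the histone variant H3.3, read 52.97 and 51.4 CPM near PML and 34.2 and 35.4 CPM near SP100 (0.59 ± 0.15, adjusted p = 0.011). Its inputs differed by -0.07 (adjusted p = 0.88), but its call was lost with any of the 4 pulldowns left out.

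BLM, the helicase mutated in Bloom syndrome, differed by 0.42 ± 0.12 (adjusted p = 0.025), a call that was lost with DESeq2 size factors, with total counts, with either other filter and with any of the 4 pulldowns left out. TRIM5, a restriction factor of retroviruses, was higher with SP100, at 5.07 and 4.43 CPM against 2.46 and 2.97 CPM (-0.81 ± 0.21, adjusted p = 0.015), a call lost without the filter on low counts, without PML pulldown 1 and without SP100 pulldown 1. The genes of the best-known resident proteins were not called: RNA of DAXX differed by -0.17 (adjusted p = 0.52) and that of ATRX by 0.18 (adjusted p = 0.55). This pair was named after the values were seen, and RNA near a bait does not measure where the protein resides. With DESeq2 size factors and with total counts the list had 4 calls towards PML and 3 towards SP100.

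Of 24 genes of SUMO conjugation and deconjugation, 1 was called (4.17% against 5.2% of all genes tested). SENP2, a protease that removes SUMO, differed by 0.40 ± 0.10 (adjusted p = 0.013) with an input difference of 0.47 (adjusted p = 0.0027). Its call was lost with total counts, without the filter and with any of the 4 pulldowns left out. Of 17 landmark noncoding RNAs 0 were called between the pulldowns by edgeR or DESeq2, and 4 had an unadjusted p under 0.05. NEAT1, the scaffold of paraspeckles, was listed among them at 530 and 442 CPM near PML and 854 and 708 CPM near SP100 (-0.68 ± 0.26, adjusted p = 0.13).

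Targets of p53 were called towards SP100 only. Of 29 tested, 6 were higher with SP100 and 0 with PML (20.7% called against 5.2% of all genes tested), with a median of -0.20, and the inputs had 14 and 0 calls with a median of -0.43. The pulldown counts were 10 and 0 with DESeq2 size factors and 11 and 0 with total counts. CDKN1A, the inhibitor of cyclin-dependent kinases known as p21, read 31.5 and 33.4 CPM near PML and 92.8 and 95.8 CPM near SP100. The difference was -1.54 ± 0.16, or 2.91-fold higher with SP100 (adjusted p = 1.2e-08), and the inputs read 40.1 and 42.3 CPM against 151 and 134 CPM. The 12 other pulldowns held CDKN1A at means of 22.5 to 46.0 CPM, so SP100 stood above all of them and PML within.

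GDF15, a secreted stress cytokine, read 0.394 and 1.09 CPM near PML and 3.84 and 3.48 CPM near SP100 (-2.28 ± 0.35, adjusted p = 2.6e-05). SPATA18, a factor of mitochondrial quality control, differed by -0.80 ± 0.13 (adjusted p = 5.1e-05), and TNFRSF10B, a death receptor for TRAIL, by -0.51 ± 0.10 (adjusted p = 0.0015). PLK3 (-0.78) and PIDD1 (-0.82), named because they complete the calls of the list, had input differences of -0.78 and -0.80. PURPL, a long noncoding RNA described as a p53 target, was one of the genes with the lowest differences: it read 16.015 and 15.6 CPM near PML and 107 and 120 CPM near SP100 (-2.84 ± 0.25, adjusted p = 6.7e-11). For PURPL the mean of the PML pulldowns was the lowest of the 14 baits and that of SP100 the highest.

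Early response genes, which cells transcribe within minutes of a stimulus, gave 1 call towards PML and 7 towards SP100 of 43 tested in the pulldowns (18.6% called against 5.2% of all genes tested). In the inputs the same list gave 1 and 24 calls, with a median of -0.72 against -0.22 in the pulldowns. MYC was the gene higher with PML, at 73.4 and 71.9 CPM against 29.3 and 32.0 CPM near SP100 (1.24 ± 0.15, adjusted p = 1.5e-07), and its level near SP100 lay below all 12 other baits. FOSL1, a partner of JUN in the AP-1 factor, read 4.17 and 4.69 CPM near PML and 9.03 and 10.0 CPM near SP100 (-1.11 ± 0.17, adjusted p = 1.5e-05). The remaining calls were CCN1 and CCN2 and, named after their values were seen, ATF3, KLF6, MAFF and PPP1R15A.

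CCN1 and CCN2 encode secreted matricellular proteins and, with ANKRD1, are textbook targets of the YAP and TEAD transcription factors. CCN2 read 20.0 and 18.6 CPM near PML and 56.6 and 47.8 CPM near SP100 (-1.43 ± 0.20, adjusted p = 4.7e-06), and CCN1 50.8 and 48.2 CPM against 119 and 99.5 CPM (-1.14 ± 0.18, adjusted p = 3.9e-05). ANKRD1, an ankyrin-repeat regulator, read 2.79 and 2.22 CPM near PML and 27.5 and 25.0 CPM near SP100 (-3.39 ± 0.28, adjusted p = 2.3e-11), and the 12 other baits reached 3.86 CPM at most. All of these lay above the 12 other baits in the SP100 pulldowns, and their inputs differed in the same direction by -1.89, -2.00 and -3.15.

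The promoters of CCN2 and ANKRD1, the 250 bases before the start of the gene in RefSeq (GRCh38.p14), are shown because both members moved together and carry the letters GGAATG of the TEAD motif, in capitals. CCN2 lies at chr6:131951373-131951622 on the minus strand, with 3 matches starting 169, 104 and 95 bases before the start, and ANKRD1 at chr10:90921088-90921337 on the minus strand, with 2 matches at 220 and 128 bases. Genes and motif were chosen after the values were seen.
CCN2: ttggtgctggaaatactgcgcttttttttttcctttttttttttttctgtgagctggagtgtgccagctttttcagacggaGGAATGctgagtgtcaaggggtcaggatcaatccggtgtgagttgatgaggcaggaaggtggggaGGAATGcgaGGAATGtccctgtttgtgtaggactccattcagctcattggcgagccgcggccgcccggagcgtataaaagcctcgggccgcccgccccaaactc
ANKRD1: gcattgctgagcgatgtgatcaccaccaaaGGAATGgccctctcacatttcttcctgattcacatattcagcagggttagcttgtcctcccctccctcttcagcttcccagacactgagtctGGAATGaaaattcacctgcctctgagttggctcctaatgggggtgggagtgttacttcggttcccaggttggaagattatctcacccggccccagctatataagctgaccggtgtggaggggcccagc
Of 35116 promoters of this length, 4175 (11.9%) held GGAATG on either strand and 29 (0.083%) held 3 matches or more. Among promoters of called genes the share was 37 of 338 (10.9%) for those higher with SP100 and 52 of 523 (9.94%) for those higher with PML, beside 9.64% of the 13773 promoters of tested genes. A match describes letters and not binding.

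Other early response genes were called between the inputs and not between the pulldowns. JUN read 213 and 205 CPM near PML and 177 and 183 CPM near SP100, but 270 and 266 CPM in the PML inputs and 768 and 597 CPM in the SP100 inputs. EGR1 read 75.0 and 67.6 CPM near PML and 57.0 and 71.2 CPM near SP100, with overlapping groups, and 226 and 219 CPM against 794 and 621 CPM in the inputs. Pulldown over input differed between the baits for 6 genes of this list (JUN, FOS, FOSB, EGR1, ATF3 and NR4A3), all named after their values were seen. The call was lost without SP100 pulldown 1, PML input 2 or SP100 input 1 for EGR1, for FOS also without PML pulldown 1 or SP100 pulldown 2, and in 7 of 17 alternatives for ATF3 and 9 for NR4A3, each with 1 library left out or, for NR4A3, also without the filter. Summed over the list with TMM-scaled library sizes, the SP100 inputs held 3417 to 4062 CPM, above the 24 inputs of the other constructs (1618 to 3102 CPM). The PML inputs lay at 1916 to 1978 CPM.

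For comparisons that use inputs, the SP100 and PML lines also fell into different sets of libraries. The ribosomal pseudogene RPS14P8 had 395 and 578 counts in the SP100 inputs, 8 to 10 in the PML inputs and 6 to 14 in the 4 pulldowns. A split at 100 counts put 16 inputs of 8 baits, SP100 among them, on one side and the PML inputs and both compared pulldowns on the other. For the inputs, and for pulldown over input, set and line cannot be told apart. Both pulldown groups lie on the same side, and with only the 36 libraries of at most 15 counts in the fit, 1230 of the 1232 pulldown calls were kept among 3497.

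Interferon-stimulated and antigen presentation genes had 1 call towards PML and 5 towards SP100 of 73 tested (8.22% called against 5.2% of all genes tested, median -0.16), and the inputs had 0 and 8. OAS3, a sensor of double-stranded RNA, read 9.75 and 8.60 CPM near PML and 21.8 and 23.9 CPM near SP100 (-1.32 ± 0.20, adjusted p = 2.2e-05). HLA-B, a class I antigen-presenting molecule, read 74.6 and 63.9 CPM against 131 and 116 CPM (-0.83 ± 0.21, adjusted p = 0.012), with reads that related HLA genes can share. HERC5, the ligase for ISG15, differed by -0.38 ± 0.09, and CMPK2 stood near 1 CPM or below in all 4 pulldowns. TAP1, the peptide transporter, was also higher with SP100, and STAT3 was the call towards PML (0.32, adjusted p = 0.046), which was not called with DESeq2 size factors or total counts. The HLA-B call was lost without either PML pulldown and without SP100 pulldown 1, the HERC5 call without the filter and with any of the 4 pulldowns left out, and the CMPK2 call without PML pulldown 1, without SP100 pulldown 1 and with only the compared libraries fitted. In the MHC region of chromosome 6, 2 of 172 genes were higher with PML and 6 with SP100, 4.65% called and so below the 5.2% of all genes tested. HLA-DOA, a class II chaperone, ran against the direction of HLA-B at 5.87 and 4.50 CPM near PML and 0.768 and 0.766 CPM near SP100 (2.75 ± 0.25, adjusted p = 3.4e-10). The well-known responder IFIT1 (0.56, adjusted p = 0.29) was not called. IFIT1, TAP1 and STAT3 were named after their values were seen.

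Nuclear pore and lamina genes had 5 calls towards PML and 0 towards SP100 of 37 tested (13.5% called against 5.2% of all genes tested), with a median of 0.10 that was -0.0015 with total counts. Besides NUP98 these were SEH1L (0.55 ± 0.11), NUP88 (0.43 ± 0.09), NUP133 (0.35 ± 0.10) and NUP85 (0.35 ± 0.10), all nuclear pore components. Unlike NUP98, each of the other 4 was called in the inputs in the same direction, with differences between 0.30 and 0.59. SEH1L lies on chromosome 18 and NUP88 on chromosome 17, where the median pulldown differences of genes with a mean of 5 CPM or more were 0.46 and 0.26. The part of such placement in the count of this list was not tested. With DESeq2 size factors and with total counts 3 calls were left. The NUP133 call was lost with every other scaling and with any of the 4 pulldowns left out, and the SEH1L and NUP88 calls without PML pulldown 1 and without SP100 pulldown 2, that of NUP88 also without SP100 pulldown 1 and without the filter.

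DNA repair genes had 4 calls towards PML and 0 towards SP100 of 57 (7.02% called against 5.2% of all genes tested), and 1 and 1 with DESeq2 size factors or total counts. Among genes with a known position and a mean of 5 CPM or more, 5.33% were called towards PML and 2.32% towards SP100. LIG3, a DNA ligase of the nucleus and mitochondria, read 146 and 127 CPM near PML and 83.0 and 92.2 CPM near SP100 (0.64 ± 0.14, adjusted p = 0.0024), a call lost without PML pulldown 1 and without SP100 pulldown 1. Small nucleolar RNA host genes and mitochondrial ribosomal protein genes each had 4 calls towards PML and 0 towards SP100, of 21 and 66 tested. That was 19.05% and 6.06% called, the second near the 5.2% of all genes tested. The calls towards PML fell to 1 each with DESeq2 size factors and to 1 and 0 with total counts. Among replication-dependent histone genes 2 of 49 were called (4.08% against 5.2% of all genes tested), both towards PML. The linker histone H1-3 read 29.7 and 30.0 CPM against 14.7 and 13.4 CPM (1.08 ± 0.20, adjusted p = 0.0003), and H2AC15 differed by 0.85 ± 0.19, a call lost without PML pulldown 1 and without SP100 pulldown 1. Reads of near-identical histone genes are uncertain. Of 22 spliceosomal snRNA genes 0 were called by edgeR or DESeq2 and 2 had an unadjusted p under 0.05, with a median of 0.48.

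Of 15 mitochondrially encoded genes, 2 were higher with PML (13.3% called against 5.2% of all genes tested): MT-ND6, a subunit of respiratory complex I, at 38.6 and 33.7 CPM near PML and 17.5 and 21.4 CPM near SP100 (0.89 ± 0.22, adjusted p = 0.0097), and MT-ATP8, a subunit of the ATP synthase (0.84 ± 0.23, adjusted p = 0.022). The MT-ND6 call was lost without PML pulldown 1 and without SP100 pulldown 1, and the MT-ATP8 call with total counts and with any of the 4 pulldowns left out. Neither was called in the inputs, while the mitochondrial share of all counts was higher in the SP100 pulldowns (1.002 to 1.10%) than in the PML pulldowns (0.918 to 0.941%). Among NRF2 antioxidant genes 2 of 25 were higher with PML and 1 with SP100 (12% called against 5.2% of all genes tested). SLC7A11, the cystine importer, read 96.7 and 87.0 CPM near PML and 50.4 and 52.8 CPM near SP100 (0.83 ± 0.22, adjusted p = 0.016), SOD2, the mitochondrial superoxide dismutase, differed by 0.53 ± 0.11, and OSGIN1 stood at 0.219 to 1.63 CPM in the 4 pulldowns. The SLC7A11 call was lost with any of the 4 pulldowns left out, the SOD2 call without PML pulldown 1, without SP100 pulldown 1 and without the filter, and the OSGIN1 call without PML pulldown 2 and without SP100 pulldown 1.

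Heat shock and unfolded protein genes had 1 call each way of 37 (5.41% called, near the 5.2% of all genes tested). These were CHAC1, a glutathione-degrading enzyme induced by ATF4 (1.13 ± 0.20, adjusted p = 0.0003), and HSPB1, a small heat shock protein (-0.65 ± 0.18, adjusted p = 0.029). Of 44 genes of the secretory pathway, the tetraspanin CD63 was called towards SP100 (-0.57 ± 0.15, adjusted p = 0.019), the 1 call of the list (2.27% against 5.2% of all genes tested). The CHAC1 call was lost without SP100 pulldown 1, the HSPB1 call with any of the 4 pulldowns left out and the CD63 call without either PML pulldown and without SP100 pulldown 1. Genes known for detained introns had 0 calls of 47 by edgeR, 2 by DESeq2 and 4 at an unadjusted p under 0.05. Of 13 tested genes described as expressed in HEK293 cells, 4 were called (30.8% against 5.2% of all genes tested), LIN28B (0.57) and the cadherin CDH2 (0.66) higher with PML and ENO2 (-0.47) and KRT8 (-0.58) with SP100. The calls of LIN28B and CDH2 were lost with each of the 3 other scalings, those of LIN28B, CDH2 and KRT8 with any of the 4 pulldowns left out, and that of ENO2 without the filter, without either PML pulldown and without SP100 pulldown 1. By span, genes over 100 kb had 210 calls towards PML and 71 towards SP100 of 3602 (7.80% called against 5.2% of all genes tested). Genes of 10 to 100 kb had 389 and 289 of 10529 (6.44%). Span was known only for the 18221 genes matched to RefSeq, and the 5460 others held only 109 of the 1232 calls. Genes under 10 kb had 74 and 90 of 4090 (4.01%) and long noncoding RNA genes 39 and 54 of 2129 (4.37%), both below the share over all genes.

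**Figure D3:**
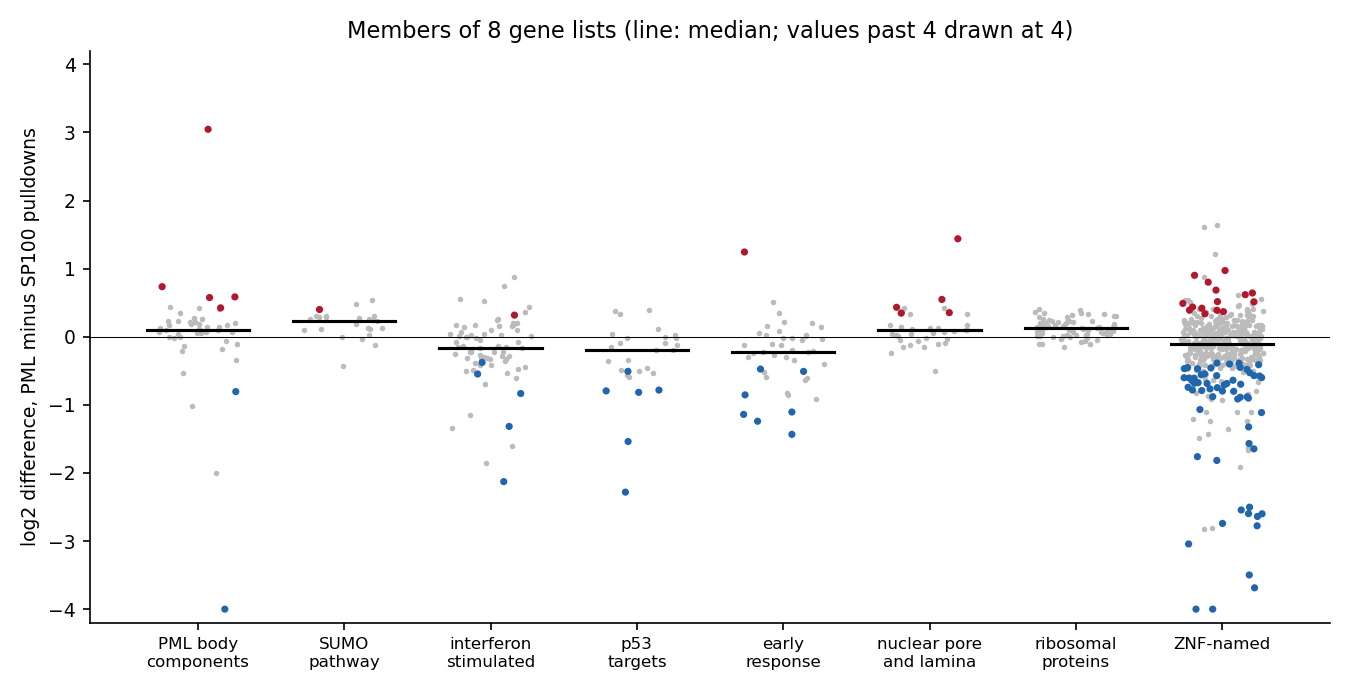
Log2 difference of PML minus SP100 pulldowns for every tested member of 8 gene lists, with called members in red (higher with PML) or blue (higher with SP100), a line at each median, and values past 4 drawn at 4. Ribosomal protein genes hold no call, p53 targets only calls towards SP100, and ZNF-named genes 59 calls towards SP100 against 15 towards PML.

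Among called coding and long noncoding genes with a mean of 5 CPM or more and groups that did not overlap, LINC01687, a long noncoding RNA gene on chromosome 21, had the highest difference. It read 12.1 and 10.1 CPM near PML and 0.491 and 0.287 CPM near SP100 (4.82 ± 0.36, adjusted p = 1.4e-12). SPARC, a collagen-binding matrix protein, read 14.1 and 13.8 CPM against 3.59 and 3.60 CPM (1.95 ± 0.26, adjusted p = 1.7e-06), and the mean near PML exceeded that of all 12 other baits. STXBP5L (1.85), SLC24A2 (1.60), ST6GALNAC5 (1.55), VSTM2B (1.53), MYOM2 (1.44) and TRPC4 (1.36) followed, and for each of these 6 the SP100 pulldowns lay below all 12 other baits. MYOM2, a protein of the sarcomere M-band, read 54.3 and 54.8 CPM near PML and 19.2 and 21.02 CPM near SP100. PYCR1, an enzyme of proline synthesis, differed by 1.37 ± 0.19 and was likewise lowest near SP100. All 12 genes at the top of the list were higher in the PML inputs as well, apart from NUP98, whose input difference was not called.

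Of the 12 lowest differences among the same genes, every call held in all alternatives run. NECTIN3-AS1, an antisense gene whose reads cannot be told from those of NECTIN3 without the strand of counting, read 5.78 and 5.69 CPM near PML and 73.2 and 75.1 CPM near SP100 (-3.69 ± 0.24, adjusted p = 2.3e-14). LMLN2 read 4.96 and 4.66 CPM against 44.7 and 58.1 CPM (-3.42 ± 0.20). HSPB8, a small heat shock protein, differed by -2.19 ± 0.22, TNFRSF12A, the receptor of the cytokine TWEAK, by -2.07 ± 0.24, and ACTBL2, an actin-like protein, by -3.14 ± 0.42. All of these were higher in the SP100 inputs too, and each lay above the 12 other baits near SP100.

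Zinc finger genes were called more often towards SP100 than towards PML. Of 431 coding genes with ZNF names, 59 were higher with SP100 and 15 with PML, 17.2% called against 5.2% over all genes tested, and the inputs gave 42 and 10. On chromosome 19, which holds large tandem clusters of these genes, 47 of 203 tested were higher with SP100 and 2 with PML, and among the 942 other genes of that chromosome 39 and 12. ZNF257 read 2.53 and 1.56 CPM near PML and 24.2 and 21.9 CPM near SP100 (-3.50 ± 0.25, adjusted p = 3.1e-13). ZNF649 read 22.6 and 20.3 CPM near PML and 36.4 and 43.7 CPM near SP100 (-0.90 ± 0.14, adjusted p = 2.2e-05), with inputs that differed by -0.09 (adjusted p = 0.82). ZNF90 had 0 and 3 counts in the PML pulldowns and 262 and 242 in the SP100 pulldowns. Members of a cluster are similar in sequence, and reads that fit several could not be assigned here.

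Calls were unevenly placed along the genome, a pattern looked for after the values were seen. Over 11456 genes with a position and a mean of 5 CPM or more the median difference was 0.08, with 5.33% higher with PML. On chromosome 18 it was 0.46, with 81 of 178 genes (45.5%) called higher with PML, 1 with SP100, and 97.2% of genes above 0. On chromosome 17 it was 0.26, with 110 of 665 genes (16.5%) called higher with PML and 3 with SP100. Together, chromosomes 17 and 18 held 198 of the 721 calls towards PML (27.5%) against 5.43% of all tested genes. Both shares count genes without a position in the full number. Of the 18221 tested genes with a position, 1287 lay on these chromosomes, and 5460 tested genes had none. CDH2 and SEH1L lie on chromosome 18, CHD3, LIG3, NUP88 and PYCR1 on chromosome 17.

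The inputs carried the same placement, with medians of 0.40 on chromosome 18 and 0.28 on chromosome 17. Levels were also set against the median of the 12 other baits, as log2 ratios with 1 CPM added. Genes of chromosome 18 had a median of 0.27 in the PML pulldowns and -0.16 in the SP100 pulldowns, and genes of chromosome 17 had 0.02 and -0.21. Over the alternatives run, the median stayed between 0.36 and 0.48 on chromosome 18 and between 0.16 and 0.28 on chromosome 17. In 230 windows of 10 Mb with 20 genes or more, window medians of pulldowns and inputs correlated at 0.918 as a description over windows of the same libraries. Of the 30 windows with a pulldown median of 0.25 or more, 6 each lay on chromosomes 1, 17 and 18 and 3 each on chromosomes 13 and 15. Another 6 lay on other chromosomes. Some windows leaned towards SP100. The lowest pulldown median was -0.25, at chr14:20000001-30000000, where the inputs had -0.31. There 12 of 66 genes were called higher with SP100 and 1 with PML. At chr19:20000001-30000000 the medians were -0.24 and -0.30, with 7 of 28 genes higher with SP100 and 1 with PML. The 6 windows of chromosome 18 had medians of 0.37 to 0.53, and the 9 of chromosome 17 had 0.04 to 0.37. Windows of chromosome 17 with medians of 0.07 and 0.04 held 0 calls towards PML. Gene copy number was not measured here.

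**Figure D4:**
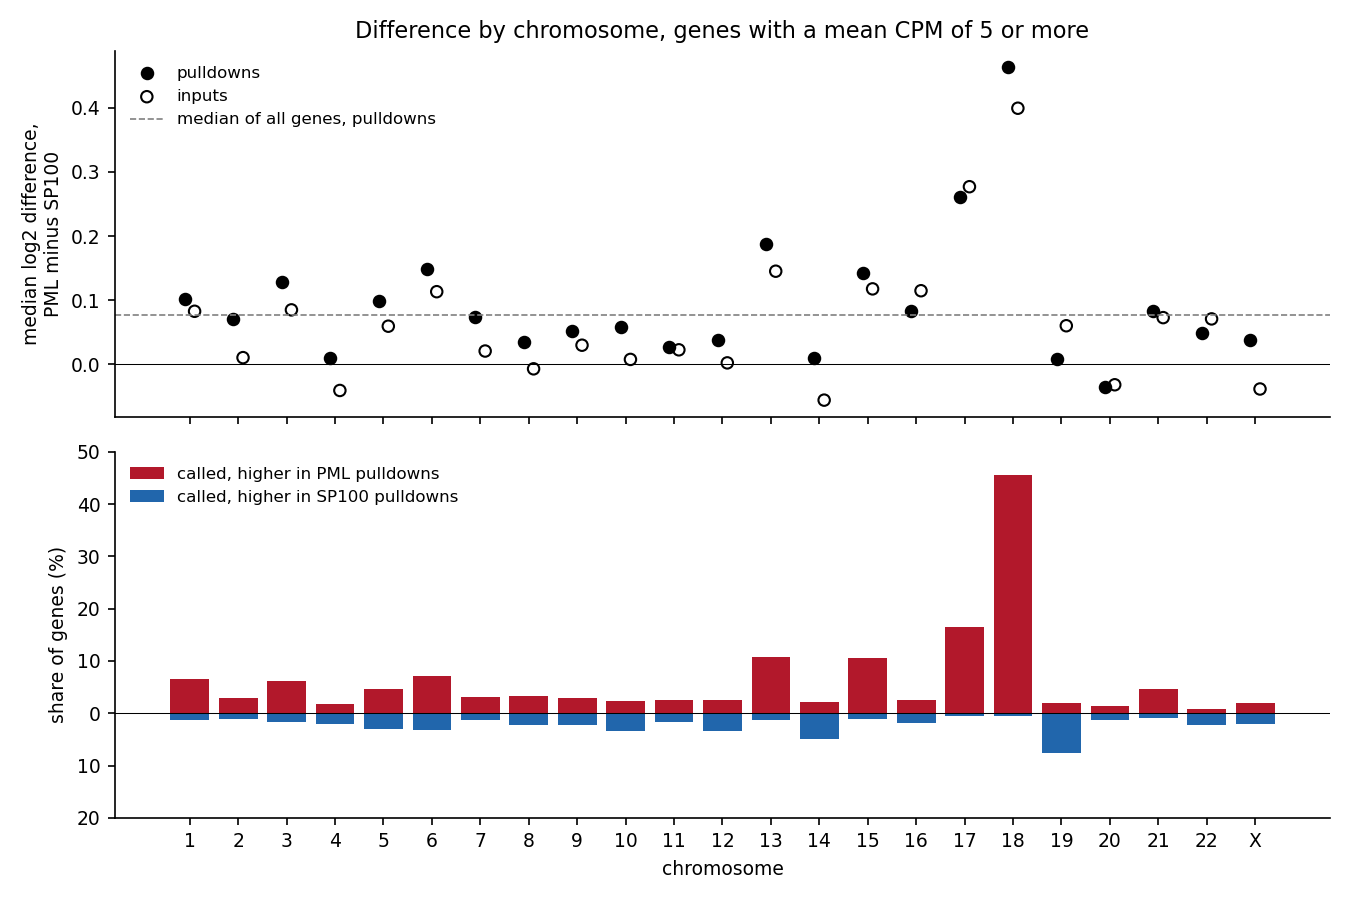
Upper panel: median log2 difference of PML minus SP100 per chromosome, over genes with a mean of 5 CPM or more, for pulldowns (filled) and inputs (open), with the median of all genes dashed. Lower panel: share of these genes called higher with PML (red, upwards) or with SP100 (blue, downwards); chromosome 18 stands highest at 45.5%, followed by chromosome 17 at 16.5%.

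Placed among all 14 baits, the calls reflected levels on both sides. Of the 721 genes higher with PML, the SP100 pulldowns lay below all 12 other baits in 297 (41.2%, against 7.26% of all genes tested), and the PML pulldowns above all of them in 69 (9.57%, against 5.49%). Of the 511 genes higher with SP100, the SP100 pulldowns lay above all others in 150 (29.4%, against 6.41%) and the PML pulldowns below all others in 111 (21.7%, against 4.32%). Because calls were chosen from these same levels, the shares are descriptions.

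PML and SP100 pulldowns both held high levels of mRNAs of the ribosome and the respiratory chain beside the other baits. Cytosolic ribosomal protein mRNAs summed to 48132 and 47250 CPM near PML and 44885 and 41887 CPM near SP100, while the 24 other pulldowns held 11550 to 43288 CPM with a median of 28292 CPM. Only the SAM68 pulldowns, with a mean of 42056 CPM, overlapped this range. Both baits lay above all 12 others for 46 of 74 ribosomal protein genes, against 3.18% of all genes tested. Between PML and SP100 themselves 0 of the 74 were called by edgeR or DESeq2, 0 had an unadjusted p under 0.05, and the median was 0.12, or 0.02 with total counts. RPL13A, a large-subunit protein, had a difference of 0.40 ± 0.23 (adjusted p = 0.37).

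Nuclear-encoded respiratory chain mRNAs summed to 6370 and 6036 CPM near PML and 5760 and 5545 CPM near SP100, and the other pulldowns to 2258 to 5698 CPM, a range that SP100 overlapped. Both baits lay above all 12 others for 26 of these 50 genes, and for 18 of 66 genes of mitochondrial ribosomal proteins. The sum of the mitochondrial ribosomal protein mRNAs was nevertheless highest in the SAM68 pulldowns, with a mean of 4762 CPM against 4469 and 4192 CPM near PML and 3942 and 3912 CPM near SP100. ATP5F1A, a subunit of the ATP synthase that is encoded on chromosome 18, was the one member of the respiratory chain called between the baits, at 681 and 642 CPM near PML and 457 and 450 CPM near SP100 (0.54 ± 0.16, adjusted p = 0.038). The ATP5F1A call was lost in 10 of 15 alternatives, among them the 3 other scalings, DESeq2's Wald test and any of the 4 pulldowns left out, and the list then had 0 calls with each other scaling. In the inputs, ribosomal protein mRNAs summed to 38991 and 42642 CPM in the PML line and 33152 and 41894 CPM in the SP100 line, within or just below the 33485 to 57116 CPM of the other lines.

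**Figure D5:**
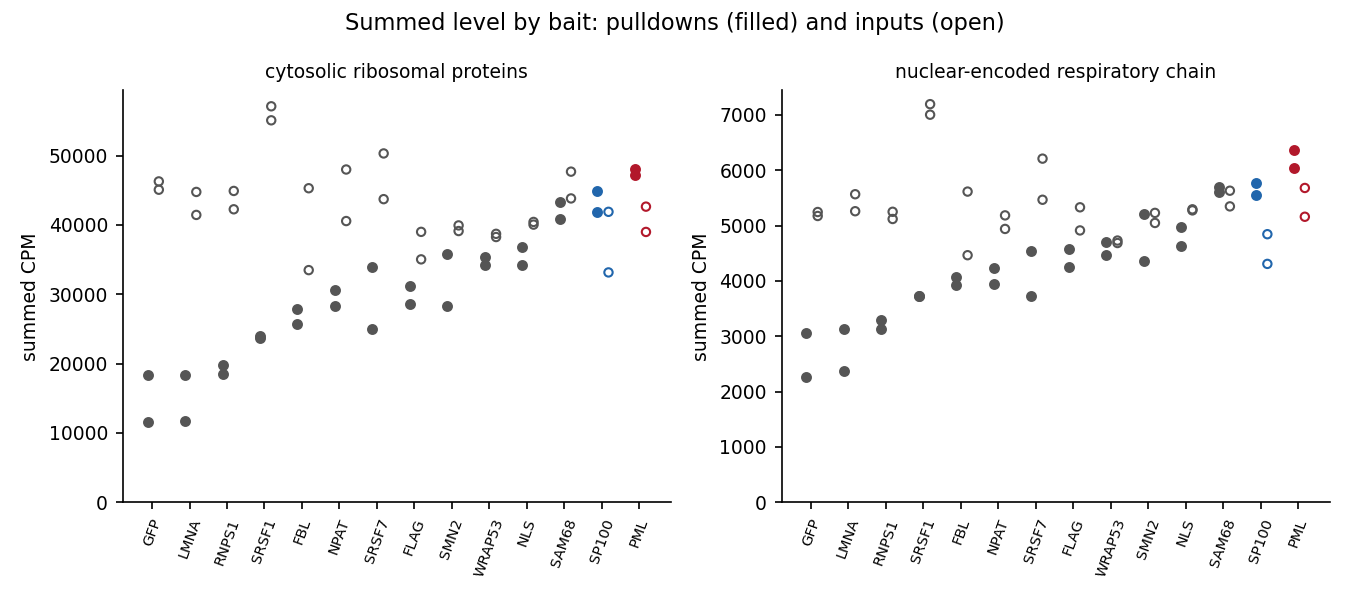
Summed CPM of cytosolic ribosomal protein mRNAs (left) and nuclear-encoded respiratory chain mRNAs (right) in every library, with baits ordered by the mean of their pulldowns; filled points are pulldowns, open points inputs, red PML and blue SP100. PML and SP100 hold the highest pulldown means in the left panel, followed by SAM68 at 42056 CPM.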

How the data were processed

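Gene counts were analysed for 56 libraries of 14 constructs (28 groups of bait and fraction, 2 libraries each). The deposited values are raw read counts per gene, whole numbers with no normalisation. Per the submitters' processing notes, STAR 2.7.4a, featureCounts and the build hg38 were used. Which annotation and which strand were used for counting is not given in the sources used here, so antisense, overlapping and paralogous genes are uncertain. Of 60591 gene rows, 1 was left out for a value that is no number. Symbols were matched to RefSeq genes (GRCh38.p14): 18221 of the 23681 tested genes matched and 5460 did not.

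Counts were filtered with filterByExpr by group, scaled by TMM and fitted with edgeR 4.0.16 in R 4.3.3 (glmQLFit, robust; 28 residual degrees of freedom), 1 mean per group. Tests were two-sided (glmQLFTest), p-values were adjusted by Benjamini-Hochberg over all genes tested, and the threshold was 0.05. The steps were tested on simulated counts. Replicates of a group differed by more than counting noise (chi-square per degree of freedom 4.06 to 10.3) and were kept as separate libraries. Counting intervals were not used for group values, whose errors come from the fit.

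Named genes were the 12 highest and 12 lowest differences among called coding or long noncoding genes with a mean of 5 CPM or more and groups that did not overlap, the 8 highest and 8 lowest of those whose inputs were not called in the same direction, the bait genes, called members of the PML body, SUMO and landmark lists, and, of every other list, the 4 members or fewer that had the smallest adjusted p. Some genes within this rule are not reported here. It gave 129 genes, from 22 lists of 932 entries and 7 lists from the annotation. The comparison, lists and rule were chosen with earlier results of these data known. Alternatives were other scalings and filters, DESeq2 1.42.0, other sets of libraries in the fit, a replicate block and leaving out each library. Chromosome, promoter and library-set analyses were chosen after seeing the data.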

Additional observations from a re-analysis of the deposited data

Results flagged for a closer look

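For 14 genes the difference between PML and SP100 was not the same in pulldowns and inputs, by edgeR's test of pulldown over input (adjusted p under 0.05). For the inputs, line and library set cannot be told apart, as the counts of RPS14P8 show. Only NUP98, EEA1, TNC and ATF3 were also called between the pulldowns.

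Higher pulldown over input with PML was found for NUP98 (1.33), EEA1 (1.36) and TNC (1.15). The early response genes JUN (1.56), FOSB (1.78), EGR1 (1.82), ATF3 (1.12), FOS (1.41) and NR4A3 (1.23) had higher levels in the SP100 inputs than in the PML inputs. Over 17 alternatives the call was lost in 3 for EGR1, 5 for FOS, 7 for ATF3 and 9 for NR4A3, and in 0 for FOSB. FOS read 10.9 and 8.91 CPM near PML and 11.2 and 11.9 CPM near SP100, against 16.9 and 14.03 CPM and 53.1 and 43.3 CPM in the inputs. The ribosomal pseudogene RPS14P8 (5.97) was at 0.188 to 0.430 CPM in the 4 pulldowns and at 23.3 and 21.4 CPM in the SP100 inputs.

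Lower pulldown over input with PML was found for MTND2P28 (-3.65), PFN1P1 (-3.84), SLC26A3 (a fitted value of -6.35) and HSPA1A (-2.77). The calls of PFN1P1 and SLC26A3 were lost without SP100 input 2, and that of HSPA1A without PML pulldown 2, SP100 pulldown 2 or SP100 input 2. MTND2P28, a pseudogene of a mitochondrial gene, read 53.5 and 55.4 CPM in the PML inputs and 3.24 and 3.81 CPM in the SP100 inputs. PFN1P1, a profilin pseudogene, and SLC26A3, an anion exchanger, were below 0.3 CPM in both SP100 inputs and above 1 CPM in the 4 pulldowns, and SLC26A3 was at 0.0590 and 0 CPM there. With 1 and 0 counts in those inputs, the fitted value of SLC26A3 depends on the prior count, is no measured fold, and ranged from -9.14 to -5.15 over 16 alternatives. HSPA1A, a heat shock protein with a near-identical copy, read 4.75 and 5.17 CPM in the PML inputs and 0.648 and 0.480 CPM in the SP100 inputs. Reads of pseudogenes and near-identical copies are uncertain.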

How the results depend on the processing

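No called pulldown difference of a named gene changed sign in the alternatives run for it, at most 15 of the 19. Runs that left out an input were not used for these differences. The side with more calls did change: the share of pulldown calls higher with PML was 58.5% and ranged from 34.5 to 60.7%. With total counts the medians of the respiratory chain (0.05 to -0.05), DNA repair (0.09 to -0.0029), nuclear pore (0.10 to -0.0015), detained intron (0.06 to -0.03) and NRF2 (0.0035 to -0.10) lists turned sign, and the median of chromosome 19 lay between -0.09 and 0.02 over the alternatives. Of the 96 called named genes, all 96 kept their direction and 46 kept their call in every alternative run for them. The count of pulldown calls (1232) moved to 3572 with only the compared libraries fitted, to 3497 with only the library set of both pulldowns, and to 2478 without the first FBL and NPAT inputs, which stood apart; with 1 library left out it was 404 to 628. Input calls (1645) moved to 4363 with only the compared libraries and 3557 without those inputs, and to 622 to 728 with 1 library left out. Calls of pulldown over input (14) moved to 34 without the filter, 27 with DESeq2, 42 with only the compared libraries and 34 without those inputs, with 8 to 12 when 1 library was left out; the 8 came without SP100 pulldown 1 or PML input 2. Calls shared with the inputs (751) moved to 2253 and 1659 under the same changes of libraries and 327 to 437 with 1 library left out. Other scalings and filters kept these counts within 1.5 times, apart from the filter named above. With 1 pulldown left out, the lone library is assumed to vary like the other groups. The filter on low counts was rerun in these fits, so 25630 to 25696 genes were tested in them against 23681 in the main fit. Losing a library and testing more genes of few counts cannot be told apart there.

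Same-numbered PML and SP100 pulldowns did not deviate together (correlation -0.0148), while the inputs of both lines (0.308), PML pulldowns and inputs (0.328) and SP100 pulldowns and inputs (0.486) did. The labels do not say that a number marks a shared culture or batch, and with 2 numbers the correlations do not settle it. With the replicate number as a block there were 1188 pulldown calls, 1177 of them shared, 1612 input calls, 14 of pulldown over input and 737 shared with the inputs.

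With 2 libraries per group, genes of few counts were limited by depth: ZNF90 had 0 and 3 counts near PML, and no fold is given.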
